A study of Mus musculus with 8 samples.

Results

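The DNA replication genes described here are 44 genes listed by name for their part in origin licensing, the replicative helicase, the polymerases and their clamp, or nucleotide supply. The rule uses no measured value, but the list was proposed with earlier results of these data known. Each of the 44 was found by its gene symbol among the 55401 genes counted in mouse embryonic stem cells (ESCs), and all 44 were among the 17532 genes with enough reads to be tested. They lay on 14 chromosomes. The 8 RNA-seq libraries comprised 2 controls, 3 libraries labelled Zzz3 auxin and 3 labelled Yeats2 auxin. ZZZ3 and YEATS2 are subunits of the ATAC histone acetyltransferase complex, and the study asked how removal of either alters RNA levels.

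In the auxin groups the ZZZ3 or YEATS2 protein bore an AID tag (auxin-inducible degron), through which the rice protein Tir1, made by these cells, sends its target to degradation once auxin is present, and auxin was given at 500 µM for 24 h. All cells were grown in serum with leukaemia inhibitory factor and the 2 kinase inhibitors known as 2i. The labels give neither the line of the controls nor whether auxin or only its solvent was added to them. The study's supplement describes its comparisons as AID cells given solvent (DMSO) or auxin, but the 2 controls are not tied there to either line, so an effect of auxin or of the line cannot be told apart from loss of the protein. The degron acts on protein, and the RNA files hold no check of the depletion. The labels do not say that replicates were separate cultures. The study's methods name independent cultures for its own labelled-RNA experiments. They match the conditions of this RNA-seq to labelled-RNA data taken from an earlier study, and do not say whether its replicates were separate cultures. If the replicates were not separate cultures, P values measure only the spread between these libraries, which may be technical.

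Replication begins when the origin recognition complex (ORC) binds DNA and, with CDC6 and CDT1, loads the MCM2-7 ring, the core of the replicative helicase. CDC45 and the GINS complex then activate the ring, and primase, the DNA polymerases, the PCNA clamp and its loader copy the strands. ESCs divide quickly with a short first gap phase and are known for high levels of these proteins through most of the cell cycle, and many of the genes are targets of E2F transcription factors.

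E2F factors bind short GC-rich letters, and promoters of 4 members are shown because these members gave the clearest differences or carried the E2F letters. Each is the stretch of 250 bases before the RefSeq start (GRCm38.p6), written 5′ to 3′ on the strand of the gene, with any of the letters TTTGGCGC, TTTCCCGC, TTTGCCGC or TTTCGCGC, on either strand, in capitals. *Mcm5* and *Mcm6* encode helicase subunits, and *Orc3* and *Orc6* encode ORC subunits.
Mcm5, chr8:75109259-75109508, plus strand: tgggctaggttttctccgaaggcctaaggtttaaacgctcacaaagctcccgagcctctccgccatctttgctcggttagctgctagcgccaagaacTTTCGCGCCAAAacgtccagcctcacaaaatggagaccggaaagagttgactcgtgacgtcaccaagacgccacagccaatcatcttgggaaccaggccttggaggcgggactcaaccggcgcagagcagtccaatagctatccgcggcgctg
Mcm6, chr1:128359706-128359955, minus strand: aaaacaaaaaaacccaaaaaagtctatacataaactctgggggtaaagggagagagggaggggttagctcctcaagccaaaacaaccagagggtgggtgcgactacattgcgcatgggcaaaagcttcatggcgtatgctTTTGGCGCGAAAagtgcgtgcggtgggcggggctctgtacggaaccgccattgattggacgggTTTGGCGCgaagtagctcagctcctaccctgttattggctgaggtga
Orc3, chr4:34614943-34615192, minus strand: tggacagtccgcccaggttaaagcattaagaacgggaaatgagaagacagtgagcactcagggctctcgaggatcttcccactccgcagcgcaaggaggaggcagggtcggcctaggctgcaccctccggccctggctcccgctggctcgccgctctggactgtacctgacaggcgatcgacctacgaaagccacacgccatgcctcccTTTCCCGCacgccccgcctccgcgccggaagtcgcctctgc
Orc6, chr8:85299382-85299631, plus strand: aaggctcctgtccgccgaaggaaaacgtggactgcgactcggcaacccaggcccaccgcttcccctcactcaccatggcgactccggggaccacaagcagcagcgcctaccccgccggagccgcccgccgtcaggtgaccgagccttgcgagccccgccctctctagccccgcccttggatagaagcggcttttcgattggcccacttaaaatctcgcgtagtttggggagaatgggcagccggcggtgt

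The RefSeq promoter table held 36 of the 44 members, with 44 windows. The E2F letters stood in the windows of 9 of the 36 members, 25.0%, namely *Cdc6*, *Gins3*, *Mcm5*, *Mcm6*, *Mcm7*, *Orc1*, *Orc3*, *Pola1* and *Rfc3*. Counted by window the share was 20.5%, against 1.86% of the 32851 windows in the whole table. In *Mcm5*, 2 overlapping matches began 153 and 149 bases before the start, and in *Mcm6* matches began 110, 106 and 47 bases before it. The *Orc3* window had 1 match, 41 bases before the start, and the *Orc6* window had none. The letters CCAAT, on either strand, stood in 54.5% of member windows against 33.8% of all windows, and the letters TTTGAA (the core of the CHR element of cell-cycle genes) in 11.4% against 16.0%. *Orc6*, *Mcm5* and *Mcm6* had the CCAAT letters, *Orc3* did not, and none of these had TTTGAA.

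The libraries held 14315120 to 27884704 reads assigned to genes, and no member had fewer than 449 reads in any library. Markers of embryonic stem cells (8 of 8 passed the filter on low counts) summed to 4547 to 5319 CPM (reads of a gene scaled to library size) in every library, and 4 fibroblast markers summed to 1.22 to 2.07 CPM. The largest part of the stem cell sum was *Tfcp2l1*, with means of 2303 (controls), 1957 (Zzz3 auxin) and 2119 CPM (Yeats2 auxin). Single markers differed in direction, as *Pou5f1* had 342, 543 and 507 CPM and *Nanog* 741, 655 and 620 CPM in that order. Of 10 markers of primed or differentiating cells, 8 passed the filter and 3 stayed under 1 CPM in each library, and their sum was 153 to 177 CPM in controls, 181 to 204 CPM in Zzz3 auxin and 217 to 235 CPM in Yeats2 auxin. Most of that sum was *Dnmt3b*, with means of 134, 162 and 198 CPM in the same order, while *Otx2* (8.94, 8.68 and 5.79 CPM) and *Sox1* (5.04, 3.07 and 2.56 CPM) had lower means in the auxin groups. A pair of libraries stood apart. Genes above the upper quartile of GC content (53.9%), measured against genes below the lower quartile (44.3%), had a log2 difference from the mean of the libraries of -0.59 for the first control and 0.43 for the third Zzz3 auxin replicate, against -0.08 to 0.15 in the others. Zzz3 auxin replicate 3 also had the fewest reads, and its replication-dependent histone genes had a median log2 value 1.96 above the control mean. The parts that cell type, GC content and these libraries played in the results were not tested, and their values are given beside the results they move with.

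All 44 members were expressed above the typical gene. Their median level per length was 41.8 TMM-scaled CPM per kb of exon, against 3.28 CPM per kb for all genes tested, and each of the 44 lay above that value. The highest level was that of *Mcm5*, at 175 CPM per kb over all libraries, and the lowest that of *Pola2*, the second subunit of polymerase alpha, at 7.77 CPM per kb. Members of 1 complex differed in level per kb. The length counted all annotated exons of a gene, so exons not used in these cells lower its value. Before division by length the control means were 262 CPM for *Orc2* (3857 bases of exon) and 124 CPM for *Orc4* (7458 bases). Within ORC the level per kb ran from 60.7 for *Orc2* to 13.9 for *Orc4*, in the GINS, CDC45 and MCM10 group from 74.6 for *Gins4* to 11.9 for *Gins2*, and among the 6 MCM2-7 genes from 175 for *Mcm5* to 75.3 for *Mcm2*. *Rrm2*, the small subunit of ribonucleotide reductase, had 127 CPM per kb and *Tyms*, thymidylate synthase, 20.6 CPM per kb. *Gmnn*, which encodes the licensing inhibitor geminin, had 88.7 CPM per kb, against 20.3 for its target *Cdt1*. Replicates agreed closely for most members. The median coefficient of variation was 6.62% for controls, 9.11% for Zzz3 auxin and 5.53% for Yeats2 auxin, and the highest were 48.9% for *Pold1* in controls and 40.6% for *Cdt1* in Zzz3 auxin.

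**Figure D1:**
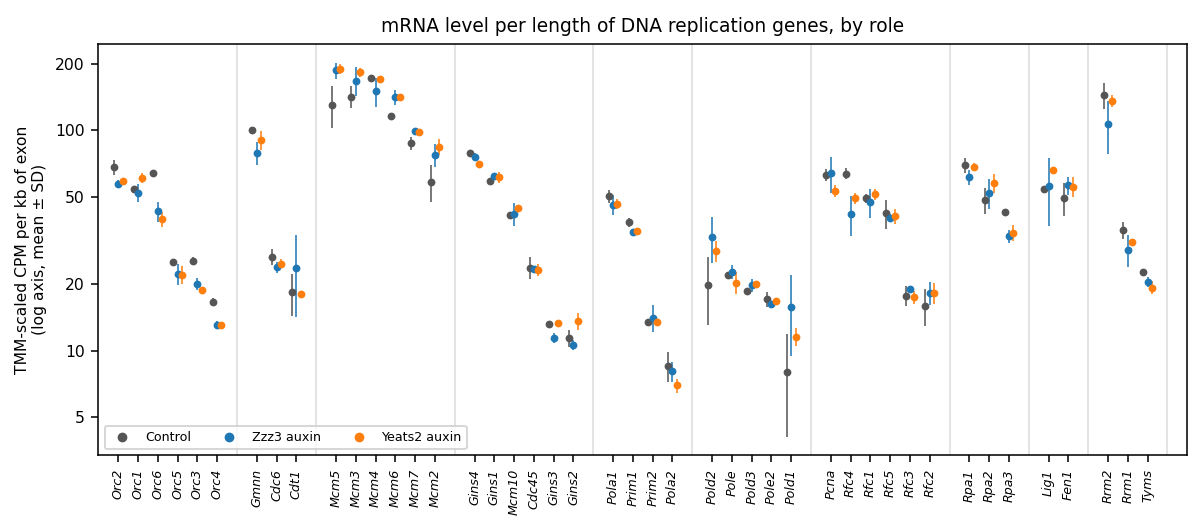
TMM-scaled CPM per kb of exon (log axis) of the 44 members, grouped by role and ordered by level, with the mean and SD of 2 control, 3 Zzz3 auxin and 3 Yeats2 auxin libraries. *Mcm5* is the highest and *Pola2* the lowest, and all 6 MCM2-7 genes lie above the median of the members.

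The list as a whole stayed near the level of the controls. Against control, the median log2 fold change (FC) of the 44 members was -0.06 for Zzz3 auxin and -0.03 for Yeats2 auxin, beside 0.01 and -0.01 for all genes tested. In Zzz3 auxin 25 members and in Yeats2 auxin 26 members had a log2 FC below 0. By edgeR's quasi-likelihood test with Benjamini-Hochberg adjustment over all genes, 0 members passed an adjusted P of 0.05 in Zzz3 auxin and 1 in Yeats2 auxin, where 0.753% and 0.445% of all genes passed. At an unadjusted P under 0.05 there were 13 members in Zzz3 auxin (5 higher, 8 lower) and 10 in Yeats2 auxin (5 higher, 5 lower), against 21.7% and 14.6% of all genes. DESeq2, the test used by the study, called 5 members in Zzz3 auxin (*Mcm5*, *Pold1* and *Pold2* higher, *Orc6* and *Rfc4* lower) and 3 in Yeats2 auxin (*Mcm5* higher, *Orc3* and *Orc6* lower), against 8.17% and 3.15% of all genes it tested. The intervals set bounds on these differences. The 95% interval of the log2 FC lay within 1 on either side of 0 for 42 of 44 members in each comparison, with *Pold1* and *Pold2* the exceptions in both, and within 0.5 for 26 members in Zzz3 auxin and 25 in Yeats2 auxin. The median standard error (SE) was 0.126 in both comparisons.

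**Figure D2:**
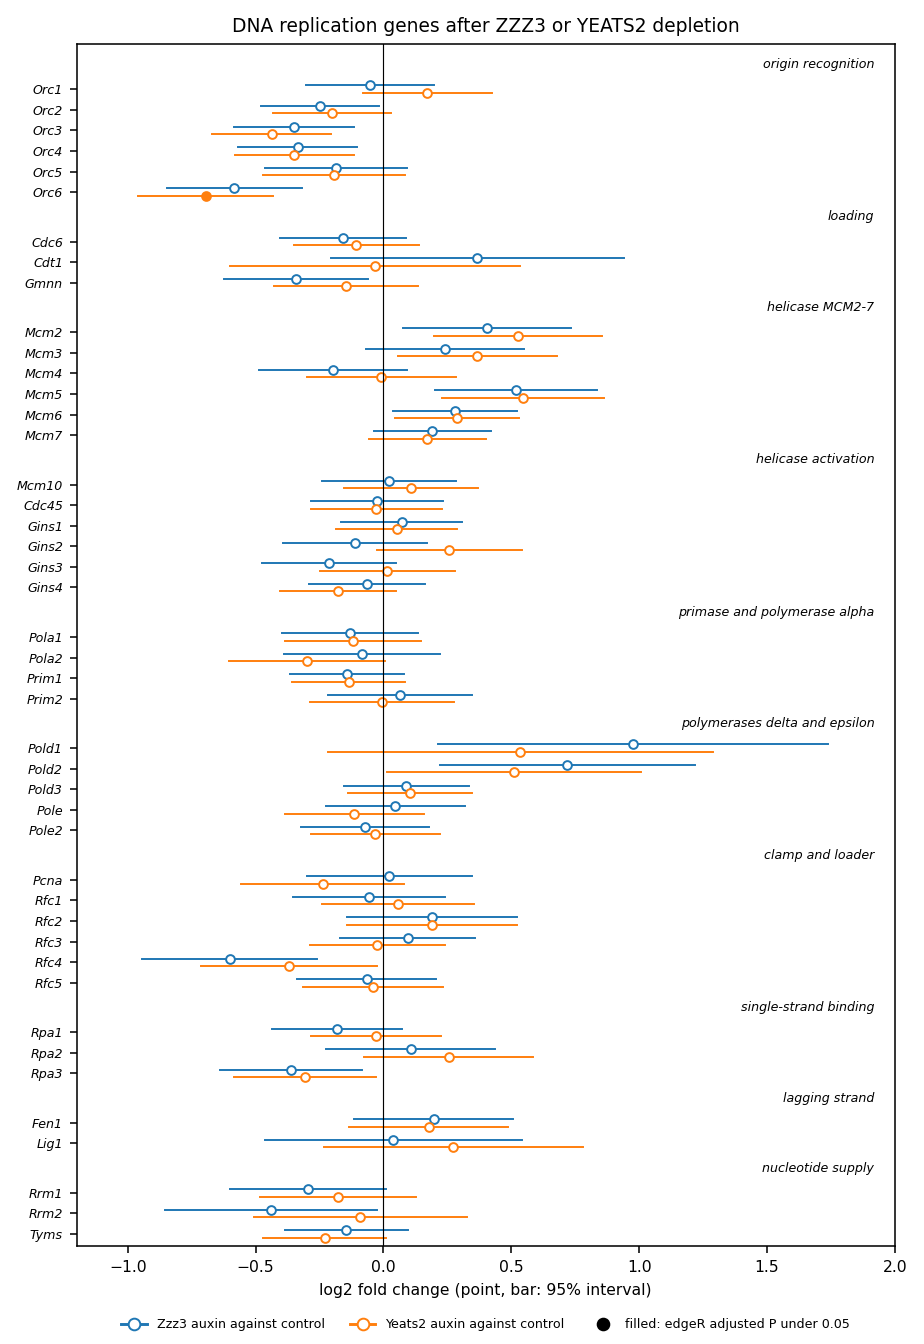
Log2 FC against control (point) with its 95% interval (bar) for each member, by role, in Zzz3 auxin (blue) and Yeats2 auxin (orange), both measured against the same 2 controls. Most intervals cross 0, and the filled point marks *Orc6* in Yeats2 auxin, with a log2 FC of -0.70, the 1 member called by edgeR in these 2 comparisons.

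The clearest difference was in ORC, where *Orc6* was lower in both auxin groups and *Orc2* to *Orc5* had lower values in all auxin libraries than in either control. Such separation was common, with 13.2% of all genes lower in all 6 auxin libraries than in both controls, and of these 5 genes *Orc2* and *Orc6* kept it after the correction for GC content and exon length. *Orc6* encodes the smallest subunit, which joins the complex least tightly and helps load the helicase. It had 156 and 161 CPM in the controls, 97.0, 103 and 118 CPM in Zzz3 auxin and 92.0, 106 and 95.0 CPM in Yeats2 auxin. Its 6 auxin libraries thus lay well below both controls, with no overlap. *Orc6* fell in Yeats2 auxin (log2 FC -0.70, SE 0.12, edgeR adjusted P = 0.0382), whereas in Zzz3 auxin the log2 FC of -0.58 (SE 0.12) just missed the threshold (edgeR adjusted P = 0.0505, DESeq2 adjusted P = 0.00274). Taking both auxin groups together against the controls gave -0.64 on the log2 scale (SE 0.11, edgeR adjusted P = 0.0203). With only 2 controls this call was fragile, as leaving out control replicate 1 or 2 gave -0.66 and -0.62 at edgeR adjusted P = 0.310 and 0.100, and leaving out Yeats2 auxin replicate 1 or 3 gave -0.61 and -0.63 at adjusted P = 0.0709 and 0.0772. In Yeats2 auxin alone the call was also lost without control replicate 1 or 2 (adjusted P = 0.419 and 0.159), without any one Yeats2 auxin replicate (adjusted P = 0.107 to 0.207) or without Zzz3 auxin replicate 2 (adjusted P = 0.0504). *Orc6* (chr8:85299632-85308278, plus strand, mm10, 2469 bases of exon) shares 171 bases of exon with *Vps35* on the opposite strand, and the strand setting of the counting is not stated. *Orc2* shares more, 1150 bases or 29.8% of its exon bases, with *Nif3l1* on the opposite strand.

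*Orc3* (chr4:34570796-34614944, minus strand), which encodes a core subunit, had 159.9 and 152 CPM in the controls, 114, 122 and 131 CPM in Zzz3 auxin and 117, 112 and 117 CPM in Yeats2 auxin. *Orc4*, one of the subunits that bind ATP, had 127 and 119.8 CPM in controls, 93.5, 98.9 and 101 CPM in Zzz3 auxin and 92.5, 98.5 and 100.0 CPM in Yeats2 auxin. For both genes the groups did not overlap, but neither passed edgeR's test across all libraries in any comparison. With only the groups compared in the fit, edgeR called *Orc3* in Yeats2 auxin (log2 FC -0.42, adjusted P = 0.0382). For *Orc3* the log2 FC was -0.35 in Zzz3 auxin, -0.44 in Yeats2 auxin and -0.39 (SE 0.09, edgeR adjusted P = 0.0606) in both together, and for *Orc4* it was -0.34, -0.35 and -0.34 (SE 0.09, edgeR adjusted P = 0.0865). DESeq2 called *Orc3* in Yeats2 auxin (adjusted P = 0.0226) and both genes with the auxin groups together (adjusted P = 0.0124 and 0.0358). *Orc2*, the ORC member with the highest level per length, had 276 and 249 CPM in controls, 221, 229.8 and 212 CPM in Zzz3 auxin and 225, 234 and 227 CPM in Yeats2 auxin, and *Orc5* had a log2 FC of -0.19 with both groups together. *Orc1*, the largest subunit, did not share this pattern, with 192 and 185 CPM in controls, 176, 199.7 and 169 CPM in Zzz3 auxin and 210.4, 224 and 202 CPM in Yeats2 auxin, so that the Zzz3 auxin libraries overlapped the controls and the Yeats2 auxin libraries lay above them.

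Several ORC values moved with the GC content of the libraries. The transcripts of *Orc3*, *Orc4* and *Orc5* had 38.6%, 36.8% and 38.2% GC, against a median of 49.0% for genes tested. Once the dependence of each library on GC content and exon length was removed, the log2 FC of both groups together was -0.19 for *Orc3*, -0.12 for *Orc4*, 0.01 for *Orc5* and -0.10 for *Orc2*, and the libraries of *Orc3*, *Orc4* and *Orc5* overlapped. *Orc6* (45.4% GC) kept a log2 FC of -0.53 (edgeR adjusted P = 0.0349) after that correction, with -0.46 in Zzz3 auxin (adjusted P = 0.0995) and -0.61 in Yeats2 auxin (adjusted P = 0.0459), and its libraries still did not overlap. Before the correction the median of *Orc2* to *Orc6* relative to the control mean was -0.41 to -0.30 on the log2 scale in the auxin libraries and between -0.04 and 0.04 in the controls.

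In contrast, genes of the MCM2-7 helicase had higher values in the auxin groups. *Mcm5* (chr8:75109569-75128439, plus strand) had 442 and 603 CPM in controls, 736, 692 and 818 CPM in Zzz3 auxin and 743, 811 and 736 CPM in Yeats2 auxin. *Mcm2*, whose product also carries histones, had 352 and 463 CPM in controls, 608, 534 and 476 CPM in Zzz3 auxin and 560.4, 640.5 and 558 CPM in Yeats2 auxin. For both genes every auxin library was above both controls, and the controls differed from each other by more than the replicates of Yeats2 auxin did. The log2 FC of *Mcm5* was 0.52 (SE 0.14, edgeR adjusted P = 0.0897) after ZZZ3 depletion and 0.55 (SE 0.14, edgeR adjusted P = 0.136) after YEATS2 depletion, and DESeq2 called both (adjusted P = 0.0247 and 0.0280). In Yeats2 auxin limma-voom (adjusted P = 0.0328) and edgeR on only the groups compared (adjusted P = 0.0493) also called it, and edgeR without a filter on low counts called it in both groups (adjusted P = 0.00777 and 0.00697). With both groups together it was 0.53 (SE 0.13, edgeR adjusted P = 0.0648, DESeq2 adjusted P = 0.00814), and for *Mcm2* 0.46 (SE 0.14, edgeR adjusted P = 0.0998, DESeq2 adjusted P = 0.0354).

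The other helicase genes did not all follow. *Mcm6* had 532 and 554 CPM in controls and 613 to 714 CPM in the auxin libraries, and *Mcm7* had 368 and 406 CPM in controls and 426 to 452 CPM in the auxin libraries, again without overlap, with a log2 FC for both groups together of 0.28 (edgeR adjusted P = 0.151) and 0.18 (edgeR adjusted P = 0.299). *Mcm3* had a log2 FC of 0.30, and its range overlapped that of the controls. *Mcm4* had 636 and 604 CPM in controls and 451 to 626 CPM in auxin libraries (log2 FC -0.10, edgeR adjusted P = 0.659), so that the genes of this ring, whose subunits act in equal numbers, did not share 1 direction. None of the 6 was called by edgeR. The median of the 6 genes lay 0.19 to 0.39 above the control mean in auxin libraries on the log2 scale and between -0.09 and 0.09 in controls. Values without control replicate 1, the GC-poor library, were smaller, with a log2 FC for both groups together of 0.33 for *Mcm5* and 0.28 for *Mcm2*, and without control replicate 2 they were 0.78 and 0.68. Without Zzz3 auxin replicate 3 edgeR called *Mcm5* at 0.51, *Mcm2* at 0.52, *Mcm3* at 0.38 and *Orc3* at -0.40 beside *Orc6* at -0.67, with adjusted P = 0.0403, 0.0403, 0.0475, 0.0284 and 0.00517. After the GC and length correction *Mcm5* kept 0.46 (edgeR adjusted P = 0.0563), *Mcm2* 0.38 and *Mcm6* 0.32, whereas *Mcm7* was at 0.05. *Mcm4* was then at -0.08 in Zzz3 auxin and 0.08 in Yeats2 auxin, where its libraries lay above both controls.

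**Figure D3:**
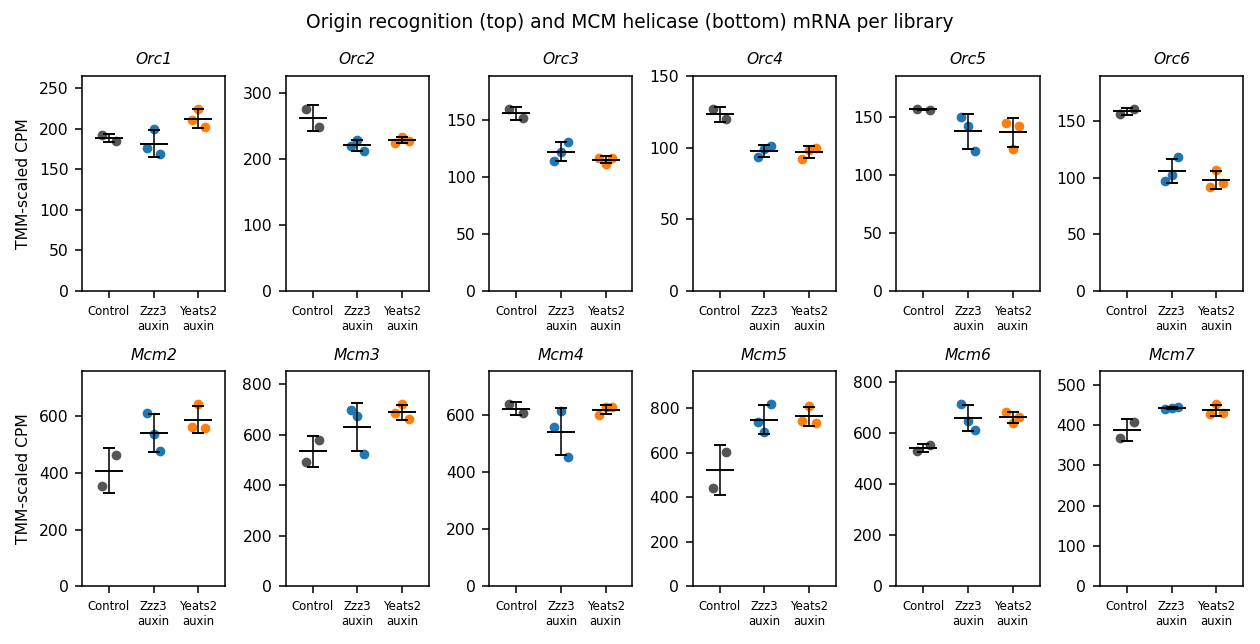
TMM-scaled CPM of the 6 ORC genes (top) and the 6 MCM2-7 genes (bottom) in each library (points), with the mean and SD of each group (lines). *Orc2* to *Orc6* are lower in all 6 auxin libraries than in both controls, *Mcm2*, *Mcm5*, *Mcm6* and *Mcm7* are higher, and *Orc1*, *Mcm3* and *Mcm4* overlap the controls.

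Of the remaining licensing genes, *Cdt1*, *Gmnn* and *Cdc6* had no difference that passed a test. *Cdt1* had 48.9 and 66.6 CPM in controls, 56.5, 58.0 and 109.9 CPM in Zzz3 auxin and 56.9, 55.0 and 57.4 CPM in Yeats2 auxin, so that the log2 FC of 0.37 in Zzz3 auxin (SE 0.26, edgeR adjusted P = 0.440) came with a single high library, Zzz3 auxin replicate 3, and was 0.02 after the GC and length correction (57.8% GC). *Gmnn* had 147 and 147 CPM in controls, 104, 130.2 and 114 CPM in Zzz3 auxin and 127, 148 and 124 CPM in Yeats2 auxin, below the controls without overlap in Zzz3 auxin (log2 FC -0.34, edgeR adjusted P = 0.160) and overlapping them in Yeats2 auxin. *Cdc6* had a log2 FC of -0.16 and -0.11. Among the 6 genes that activate the helicase, *Mcm10*, *Cdc45* and *Gins1* to *Gins4*, the log2 FC ran from -0.21 to 0.07 in Zzz3 auxin and from -0.18 to 0.26 in Yeats2 auxin, and 0 had an unadjusted P under 0.05. *Gins4* had 106 and 108 CPM in controls, 106, 98.5 and 103 CPM in Zzz3 auxin and 91.4, 96.7 and 95.9 CPM in Yeats2 auxin, and *Gins2* had 43.8 and 49.6, 40.6, 44.5 and 44.7, and 53.7, 61.7 and 52.1 CPM in the same order. *Gins2* shares 67.3% of its exon bases with *Gse1* on the opposite strand, so its counts are uncertain.

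The polymerase genes with the largest log2 FC were *Pold1* and *Pold2*, the catalytic and second subunits of polymerase delta, and these were also the members richest in GC (61.0% and 58.7%). *Pold1* had 25.3 and 52.0 CPM in controls, 71.8, 48.4 and 109 CPM in Zzz3 auxin and 55.0, 61.7 and 51.4 CPM in Yeats2 auxin. *Pold2* had 28.6 and 46.6 CPM in controls, 60.2, 48.6 and 77.5 CPM in Zzz3 auxin and 51.9, 60.1 and 48.7 CPM in Yeats2 auxin. Control replicate 1 was the lowest library for both genes and Zzz3 auxin replicate 3 the highest, and these were also the lowest and the highest library in the GC measure above. The log2 FC in Zzz3 auxin was 0.98 for *Pold1* (SE 0.34, edgeR adjusted P = 0.148, DESeq2 adjusted P = 0.0270) and 0.72 for *Pold2* (SE 0.23, edgeR adjusted P = 0.116, DESeq2 adjusted P = 0.0343). Without control replicate 1 these were 0.55 and 0.41, and without control replicate 2 they were 1.60 and 1.12 (edgeR adjusted P = 0.101 and 0.0917). Without Zzz3 auxin replicate 3 they were 0.65 and 0.54, without Zzz3 auxin replicate 2 they were 1.23 and 0.88, where edgeR called *Pold1* (adjusted P = 0.0482) and not *Pold2* (adjusted P = 0.0518), and after the GC and length correction they were 0.52 and 0.38. In Yeats2 auxin the log2 FC was 0.54 and 0.51, and 0.32 and 0.31 after the correction. *Pold3*, *Pole* and *Pole2* had a log2 FC between -0.11 and 0.10 in both groups.

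Primase and polymerase alpha, which start each strand, showed little difference. *Pola1* had 466 and 423 CPM in controls, 441, 418 and 358 CPM in Zzz3 auxin and 389, 431 and 406 CPM in Yeats2 auxin, and *Pola2* had 63.1 and 78.7 CPM in controls, 67.9, 59.6 and 73.4 CPM in Zzz3 auxin and 62.4, 55.6 and 54.8 CPM in Yeats2 auxin. The groups overlapped for *Pola1* in both comparisons, and for *Pola2* the Yeats2 auxin libraries were below both controls (log2 FC -0.30, edgeR adjusted P = 0.349). *Prim1* had a log2 FC of -0.14 in both groups and *Prim2* of 0.07 and -0.01.

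Among the clamp and its loader, only *Rfc4*, a small subunit of the loader, had libraries apart from the controls in both comparisons. It had 101 and 93.6 CPM in controls, 64.7, 77.1 and 50.9 CPM in Zzz3 auxin and 72.8, 80.7 and 73.1 CPM in Yeats2 auxin, all 6 below the controls. Its log2 FC was -0.60 (SE 0.16, edgeR adjusted P = 0.0807, DESeq2 adjusted P = 0.0200) in Zzz3 auxin and -0.37 (SE 0.16, edgeR adjusted P = 0.307) in Yeats2 auxin, and -0.40 and -0.21 after the GC and length correction. Without Zzz3 auxin replicate 2 edgeR called it in that group (log2 FC -0.75, adjusted P = 0.0311), and without replicate 3 the log2 FC was -0.45 (adjusted P = 0.0890). *Rfc4* shares 194 bases, 12.7% of its exon bases, with *Eif4a2* on the opposite strand. *Pcna*, the clamp itself, had 144 and 157 CPM in controls, 147, 129 and 184 CPM in Zzz3 auxin and 125, 137 and 122 CPM in Yeats2 auxin. *Pcna* and *Tyms* have annotated pseudogenes, and reads that match gene and pseudogene equally were left out, since only unique reads were counted. *Rfc2* had 87.3 and 114 CPM in controls, 108, 106 and 131 CPM in Zzz3 auxin and 109, 129 and 106 CPM in Yeats2 auxin. Neither gene passed edgeR's or DESeq2's test, with a log2 FC of 0.02 and -0.24 for *Pcna* and 0.19 in both groups for *Rfc2*, and *Rfc1*, *Rfc3* and *Rfc5* had a log2 FC between -0.07 and 0.10.

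Of the single-strand binding genes, *Rpa3*, the smallest subunit of replication protein A, had 48.1 and 48.3 CPM in controls, 35.3, 40.3 and 36.9 CPM in Zzz3 auxin and 37.7, 42.8 and 36.4 CPM in Yeats2 auxin. These did not overlap (log2 FC for both groups together -0.33, SE 0.11, edgeR adjusted P = 0.134), and *Rpa3* had the lowest GC content of all members (34.2%) and a log2 FC of -0.04 after the GC and length correction. *Rpa1*, the large subunit, had 366 and 411 CPM in controls, 316, 373 and 338 CPM in Zzz3 auxin and 373, 399.6 and 369 CPM in Yeats2 auxin, overlapping the controls in both groups, and *Rpa2* had a log2 FC of 0.11 and 0.26. The lagging strand genes *Lig1*, DNA ligase I, and *Fen1*, the flap nuclease, had 234 and 230.5 CPM and 105 and 134 CPM in controls. *Lig1* had 308, 259.5 and 148 CPM in Zzz3 auxin and 293, 271 and 279 CPM in Yeats2 auxin, so that Zzz3 auxin replicate 3 lay below all other libraries, and *Fen1* had 133, 126 and 151 CPM and 129.6, 150.2 and 124 CPM, overlapping the controls. Most of the exon bases of *Fen1* (78.8%) lie opposite the annotated gene *Gm10143*. For nucleotide supply, *Rrm2* had 439.5 and 364 CPM in controls, 295, 376 and 217 CPM in Zzz3 auxin and 352, 397 and 383 CPM in Yeats2 auxin, again lowest in Zzz3 auxin replicate 3 (log2 FC -0.44 in Zzz3 auxin, edgeR adjusted P = 0.207). *Tyms* had 136 and 139.8 CPM in controls, 121, 122 and 132 CPM in Zzz3 auxin and 109, 125 and 118 CPM in Yeats2 auxin, below the controls in all 6 libraries with a log2 FC of -0.15 and -0.23, and *Rrm1* was also below them in all 6, with -0.29 and -0.18.

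Counting members whose libraries did not overlap the controls gave 6 higher and 13 lower in Zzz3 auxin, where 16.8% and 18.9% of all genes did so, and 11 higher and 14 lower in Yeats2 auxin, against 19.3% and 21.0%. With all 6 auxin libraries together there were 5 higher (*Mcm2*, *Mcm5*, *Mcm6*, *Mcm7* and *Pold2*) and 11 lower (*Orc2* to *Orc6*, *Gins4*, *Prim1*, *Rfc4*, *Rpa3*, *Rrm1* and *Tyms*), against 10.5% and 13.2% of all genes. After the GC and length correction there were 5 higher (*Gins1*, *Mcm5*, *Mcm6*, *Pold2* and *Pold3*) and 3 lower (*Orc2*, *Orc6* and *Rfc4*), against 9.63% and 9.86%. Without Zzz3 auxin replicate 3 the uncorrected counts were 9 higher and 11 lower, and without control replicate 1 they were 6 and 16. In the comparison of both groups together edgeR called 1 member, *Orc6*, where 1.26% of all genes were called, 12 members (6 higher, 6 lower) had an unadjusted P under 0.05, where 20.8% of genes did, and DESeq2 called 7 (*Mcm2*, *Mcm5* and *Pold2* higher, *Orc3*, *Orc4*, *Orc6* and *Rfc4* lower), where 6.98% of genes were called. The median log2 FC of the members was -0.04, beside 0.00 for all genes.

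Across the 44 members the log2 FC of both groups together was higher at higher GC content of the transcript, with a Pearson correlation of 0.736, against 0.361 across all genes tested, and after the GC and length correction it was 0.364 across the members. These are descriptions, since the genes share their libraries and are not independent replicates. The members ran from 34.2% to 61.0% GC.

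**Figure D4:**
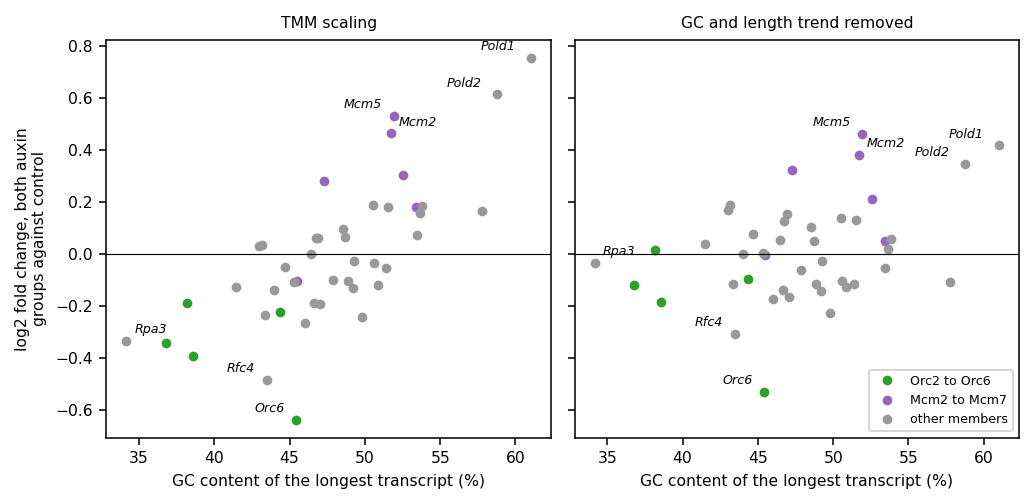
Log2 FC of both auxin groups against control for the 44 members by the GC content (%) of the longest transcript, before (left) and after (right) the GC and length correction. *Orc6* stays the lowest point at -0.64 and -0.53, *Mcm5* the highest on the right at 0.46, and *Rpa3* moves from -0.33 to -0.04.

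The depletions of ZZZ3 and YEATS2 were set against each other directly, because both act on the same complex and both comparisons above share the controls. In Yeats2 auxin against Zzz3 auxin edgeR called 0 members, as it called 0.0% of all genes, and DESeq2 also called 0. At an unadjusted P under 0.05 there were 2 members, against 6.25% of all genes: *Gins2* (log2 FC 0.37, SE 0.11, edgeR adjusted P = 0.779) and *Orc1* (log2 FC 0.22, SE 0.10, edgeR adjusted P = 0.779), both higher in Yeats2 auxin without overlap. For *Orc6* the difference was -0.11 (95% interval -0.35 to 0.13) and for *Mcm5* 0.03 (95% interval -0.25 to 0.31). The interval lay within 0.5 of 0 for 36 of 44 members and within 1 for 43, *Pold1* being the exception, and the median log2 FC was 0.01.

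Genes that act beside the members were read from the same fits. Over all genes tested, 21.7% in Zzz3 auxin and 14.6% in Yeats2 auxin had an unadjusted P under 0.05. EdgeR called 0.753% and 0.445% of all genes, and 1.26% with both groups together. DESeq2 called 8.17%, 3.15% and 6.98% of the genes it tested, in the same order. Of 46 other replication genes, edgeR called 0 in either comparison against control, where 14 and 12 had an unadjusted P under 0.05 and DESeq2 called 6 and 4, and 2 with both groups together, both lower: *Tipin*, of the fork protection complex (log2 FC -0.44, SE 0.10, edgeR adjusted P = 0.0482), and *Wdhd1*, which links polymerase alpha to the helicase (log2 FC -0.47, SE 0.09, edgeR adjusted P = 0.0358). Both calls were lost without either control (adjusted P = 0.103 to 0.558), without any one Yeats2 auxin replicate (0.0773 to 0.135) or without Zzz3 auxin replicate 1 (0.0692 and 0.0503), and *Tipin* had a log2 FC of -0.22 after the GC and length correction. The medians of these 46 were -0.14 for Zzz3 auxin and -0.09 for Yeats2 auxin, and -0.05 and -0.03 after the GC and length correction. With both groups together the genes called by DESeq2 included *Uhrf1* and *Recql4*, which were higher, and *Cdc7*, *Mms22l*, *Tipin* and *Wdhd1*, which were lower. Of 13 E2F, DP and pocket protein genes edgeR called 0, with 5 in each auxin group at an unadjusted P under 0.05, and with both groups together DESeq2 called 4, *E2f1* (log2 FC 0.53) and *Rbl2* (0.54) higher and *E2f3* (-0.49) and *E2f8* (-0.58) lower. After the GC and length correction *E2f1* was at 0.24 (edgeR adjusted P = 0.554), *Rbl2* at 0.57, *E2f3* at -0.51 and *E2f8* at -0.62, and edgeR called *E2f3* (adjusted P = 0.0394). Of 10 replication checkpoint genes edgeR and DESeq2 called 0 in both groups, with 4 and 0 at an unadjusted P under 0.05. Their medians were -0.18 and -0.15, and -0.15 and -0.03 after the GC and length correction.

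Among 12 cyclins, kinases and inhibitors of the step into S phase, *Ccne2*, which encodes cyclin E2, was the 1 gene called. It had 59.7 and 56.6 CPM in controls, 24.8, 26.3 and 29.0 CPM in Zzz3 auxin and 21.9, 25.4 and 21.3 CPM in Yeats2 auxin, so that all auxin libraries had under 30 CPM. *Ccne2* fell after depletion of ZZZ3 (log2 FC -1.12, SE 0.13, edgeR adjusted P = 0.0131) and of YEATS2 (log2 FC -1.35, SE 0.13, edgeR adjusted P = 0.00468), and after the GC and length correction the log2 FC was -0.86 and -1.10. With both groups together it was -1.23 (edgeR adjusted P = 0.00213), and without control replicate 1 it was -1.20 (adjusted P = 0.0636). The Zzz3 auxin call was also lost without control replicate 1 or 2 or Yeats2 auxin replicate 1 (adjusted P = 0.192, 0.0781 and 0.0539) or with only the groups compared in the fit (log2 FC -1.11, adjusted P = 0.109), and the Yeats2 auxin call without control replicate 1 or Yeats2 auxin replicate 1 or 3 (adjusted P = 0.109, 0.0624 and 0.0722). *Ccne2* shares 609 bases, 17.4% of its exon bases, with *Ints8* on the opposite strand. Of 12 genes of the G2 and M phases edgeR called 0, with 5 and 3 at an unadjusted P under 0.05, and DESeq2 called 0 and 1 (*Bub1*, lower). The medians were 0.09 in both groups, and 0.11 and 0.06 after the GC and length correction. Of 70 replication-dependent histone genes 58 passed the filter and edgeR called 0, with 10 and 2 at an unadjusted P under 0.05. DESeq2 called 1 and 0 of them. Their medians were 0.99 in Zzz3 auxin, where replicate 3 stood apart, and 0.14 in Yeats2 auxin. After the GC and length correction these medians were 0.67 and 0.07, and edgeR called 1 and 0 of the genes. The controls also differed, with library medians of -0.57 and 0.57 relative to the control mean. Zzz3 auxin replicates 1 and 2 had 0.28 and 0.19, below the second control. The shares over all genes given for the lists above apply to these lists as well. In bulk RNA, fewer cells in S phase and less RNA per cell cannot be told apart for any of these genes.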

How the data were processed

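Total RNA libraries of 8 mouse ESC samples (2 Control, 3 Zzz3 auxin, 3 Yeats2 auxin, grouped by their titles) were analysed. The authors trimmed reads with cutadapt, discarded rRNA reads, mapped to mm10 by STAR 2.5.3a and deposited raw counts per gene from HTSeq 0.6.1p1, with unique and unambiguous reads only. The labels name poly(A) RNA, although the library protocol is one of ribodepleted total RNA. Of uniquely aligned reads, 29.6% to 37.1% were assigned to no counted feature and were left out. The study names counting over whole genes, introns included, only for its labelled RNA. The reads left out here may therefore include reads in introns of annotated genes. GENCODE M21 (GRCm38) gave symbols for 55141 of the 55401 genes.

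Counts were filtered by filterByExpr, scaled by TMM and fitted over all 8 libraries with edgeR 4.0.16 (R 4.3.3) by the robust quasi-likelihood test, with 1 mean per group. Two-sided P values were adjusted over the 17532 genes tested (Benjamini-Hochberg), and calls were made at an adjusted P under 0.05. The SE is the log2 FC divided by the square root of F, and intervals are 95% intervals. The comparison of both auxin groups took the mean of the 2 group means. Alternatives were DESeq2 1.42.0, limma-voom 3.58.1 with quality weights, median-of-ratios factors, other filters, only the groups compared, a replicate block, removal of each library's lowess trend (span 0.3) on GC content and exon length through offsets, and leaving out each library. On simulated data with 200 changed genes among 17532, edgeR recovered 78% (Zzz3 auxin) and 74% (Yeats2 auxin) of genes changed by a log2 FC of 1, and 99.5% and 99% at 2. Of its calls there, 5.80% and 5.94% were false. The simulated libraries had no GC trend and no change smaller than 1, so these shares do not give the power for smaller differences. Tables were summarised in Python 3.11.15 (pandas 2.3.3, numpy 2.4.6, matplotlib 3.10.9).

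The members, the other gene lists and the markers were chosen with earlier results of these data known, and no set test was run. Values per library are given for members called by edgeR or DESeq2 in any comparison and for the members with the highest and lowest level per length in each role. A few others (*Orc1*, *Mcm4*, *Mcm6*, *Mcm7*) are given as well, chosen after their values were seen. The overlap of libraries under other settings was counted after seeing the data. Counting error is small at these depths, and precision is given by the SE of each log2 FC.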

Additional observations from a re-analysis of the deposited data

How the results depend on the processing

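In the order Zzz3 auxin, Yeats2 auxin, Yeats2 auxin against Zzz3 auxin and both groups against control, edgeR called 132, 78, 0 and 221 genes and 0, 1, 0 and 1 members. DESeq2 called 1083, 418, 3 and 1012 genes and 5, 3, 0 and 7 members. Without a filter on low counts edgeR called 1542, 553, 117 and 1324 genes and 5, 4, 0 and 5 members. With limma-voom the counts were 82, 375, 1 and 461 genes and 0, 4, 0 and 3 members. With only the compared groups in the fit they were 0, 454 and 0 genes and 0, 3 and 0 members, and the comparison of both groups has no such fit. With the GC and length correction they were 167, 132, 0 and 250 genes and 0, 1, 0 and 1 members, and the median log2 FC of the members was 0.0054, 0.040, 0.0041 and 0.00097, against -0.061, -0.028, 0.012 and -0.043 without it. Median-of-ratios factors and a minimum mean of 1 CPM left each of these counts within 1.5 times its value. Leaving out 1 library in turn gave 0 to 841, 0 to 217, 0 to 1 and 0 to 674 genes, 0 to 3, 0 to 1, 0 to 0 and 0 to 5 members, and member medians of -0.060 to 0.0057, -0.041 to 0.021, -0.017 to 0.031 and -0.061 to -0.018. Without control replicate 1 or control replicate 2 edgeR called 0 members in any comparison. The cause of these shifts was not tested.

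Deviations of same-numbered libraries from their group means had correlations of -0.34 to 0.31 (7 pairs, 3 over 0.1). Such deviations sum to 0 within a group, so those of the 2 controls mirror each other. These correlations therefore cannot tell whether the replicate numbers pair the samples. With the replicate number as a block edgeR called 42, 32, 0 and 107 genes and 0, 0, 0 and 1 members, and with the block and the GC and length correction 66, 57, 0 and 129 genes and 0, 0, 0 and 1 members, with member medians of 0.0018, 0.063, 0.0033 and 0.030. *Orc6* had a log2 FC of -0.73 in Yeats2 auxin under the block (edgeR adjusted P = 0.0688).

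*Orc6* was lower in each alternative, with a log2 FC of -0.65 to -0.46 in Zzz3 auxin (called in 4 of 17), -0.76 to -0.61 in Yeats2 auxin (called in 9 of 17) and -0.68 to -0.53 in both together (called in 12 of 16). Of the 44 members, 8, 5, 7 and 6 changed sign with the GC and length correction, none with an uncorrected log2 FC over 0.19 in size. Among the members called by edgeR or DESeq2, direction turned in the direct comparison, where values lay near 0: *Orc4* from -0.01 to 0.000066 without a filter, 0.019 without Yeats2 auxin replicate 1 and 0.01 without Zzz3 auxin replicate 3 (-0.047 to 0.019 over the libraries left out), and *Mcm5* from 0.03 to -0.02 without Yeats2 auxin replicate 2 and -0.030 without Zzz3 auxin replicate 2 (-0.030 to 0.098).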
